A study of Mus musculus with 6 samples.

Results

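The histone genes of oocytes from naturally aged mice were compared between mice given aminophylline, a theophylline derivative that inhibits phosphodiesterases nonspecifically, and control mice. Members were the protein-coding genes of the deposited expression table whose symbol begins with a histone prefix (Hist1h to Hist4h, H1f, H2af, H2ac, H2bc, H2b, H2az, H2ax, H3f, H3c, H4c or H4f), leaving out the H2 genes of the histocompatibility complex. The rule found 70 of the 25631 genes listed, namely 10 H1, 18 H2A, 17 H2B, 13 H3 and 12 H4 genes. RNA was sequenced in 6 libraries, 3 for each group, of oocytes punctured from large antral follicles of ICR mice 14 months old. The aminophylline group drank water with 4.0 mM aminophylline for 1 week and plain water for the next 3 weeks, and the control group drank water without the drug. Mice of both groups were injected with equine chorionic gonadotropin, a hormone that drives the growth of antral follicles. How many mice and oocytes went into a library, and whether the libraries came from separate mice, is not given in the sources used here, so the p-values measure the spread between these libraries. Values are FPKM, counted fragments per length of transcript and per total of the library, which puts genes of unlike length on one scale. How poly(A) tails, short transcripts and shared sequence affect levels between genes was not tested, so such comparisons describe FPKM only.

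Core histones H2A, H2B, H3 and H4 form the protein spool on which DNA is wound, and linker histone H1 binds where the DNA enters and leaves it. Most histone genes lie in clusters, are transcribed when DNA is replicated, and give mRNAs that end in a short stem-loop, bound by stem-loop binding protein, where other mRNAs carry a poly(A) tail. Replacement variants such as H3.3 and H2A.Z come from single genes outside the clusters and carry poly(A) tails. A growing oocyte does not replicate its DNA, and it stores histone mRNA and protein for the divisions of the early embryo.

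Of the 70 genes, 60 were counted as clustered by their older symbols (Hist1 to Hist4) and 10 as outside the clusters, without regard to position. H3f4 (chromosome 11, start 58961711) has no such symbol and was counted as outside, though near the clustered H2bu2 (start 58948911). In the GENCODE M21 transcripts (GRCm38), the histone stem-loop motif was found in 41 of the 70 genes, and in 47 (0.215%) of the 21901 protein-coding genes of that annotation. All 41 were clustered genes. The sites of the H4 genes described below are shown with that of H2bc11, which was lower after aminophylline, and with those of H2ac6 and H3c8. Capitals mark the stem-loop, and 5 bases are given on each side, in DNA letters and in the direction of the mRNA.
H4c4: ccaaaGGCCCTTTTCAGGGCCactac
H4c3: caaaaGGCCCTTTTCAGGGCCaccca
H4c8: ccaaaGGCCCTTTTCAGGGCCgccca
H4c1: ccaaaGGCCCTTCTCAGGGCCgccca
H4c9: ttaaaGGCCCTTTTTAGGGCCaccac
H4f16: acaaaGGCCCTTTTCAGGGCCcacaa
H2bc11: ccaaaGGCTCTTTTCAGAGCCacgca
H2ac6: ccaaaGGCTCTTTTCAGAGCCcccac
H3c8: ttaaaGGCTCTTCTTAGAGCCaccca

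The stem differed between H4 and the other classes. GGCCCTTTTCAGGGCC was held by 7 H4 genes, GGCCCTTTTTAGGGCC by 2 and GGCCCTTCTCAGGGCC by 1, and by 0 genes of the other classes. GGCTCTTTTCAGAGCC was held by 24 genes of H1, H2A, H2B and H3, and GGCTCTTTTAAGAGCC by 5. A further 16 members had an annotated 3' end without the motif and 13 had no 3' end in the models, so a stem-loop could not be looked for. Among the 16, the models of H3c13 and H1f1 end 37 and 48 bases after the stop codon. A stem-loop beyond those ends would be missed.

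The 16 genes with a 3' end without the stem-loop had a median FPKM of 1.51 (means over the 6 libraries), and the 41 genes with a stem-loop 0.692. A mean FPKM of 10 or more was reached by 6 of the 8 genes outside the clusters without a stem-loop, of which H1f8 was highest at 7141. Of the 8 clustered genes without one in their models, only H2bc4 did, at 420, and the other 7 had at most 1.81. Of the 41 genes with a stem-loop only H4c8 did, at 12.6. A poly(A) signal (AATAAA or ATTAAA) stood in the last 40 bases of a transcript for 11 of the 16 and also for 12 of the 41, which have longer models as well. Whether polyadenylated RNA was selected is not given in the sources used here, and its part in these levels was not tested.

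H1f8 (H1foo, the oocyte linker histone; chr6:115944931-115950242, GRCm38.p6) was the most abundant histone mRNA. Its FPKM was 5632, 8527 and 5512 in control libraries 1 to 3 and 8761, 7121 and 7291 in aminophylline libraries 1 to 3, so the groups overlapped. It made up 99.6% ± 0.0901 (SD, n = 3) of the summed FPKM of the H1 genes in control and 99.7% ± 0.0469 (SD, n = 3) with aminophylline. H1f8 alone took 0.744% ± 0.194 (SD, n = 3) of all counted reads in control and 0.877% ± 0.102 (SD, n = 3) with aminophylline. H1f0, the replacement linker histone of resting cells, followed at a mean FPKM of 20.3, with 18.1 to 22.1 over all 6 libraries.

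H3.3 mRNA made up nearly the whole of the summed FPKM of the H3 class. H3f3b and H3f3a encode the same H3.3 protein, the H3 variant that is placed on DNA without replication. H3f3b had FPKM values of 1556, 1351 and 1050 in control and 1137, 1093 and 1041 in aminophylline libraries. H3f3a had 580, 455 and 487 in control and 526, 498 and 556 in aminophylline libraries. Together they held 99.4% ± 0.0845 (SD, n = 3) of the summed FPKM of H3 genes in control and 99.3% ± 0.0987 (SD, n = 3) with aminophylline. The 9 clustered H3 genes summed to 6.46 to 12.2 FPKM over the 6 libraries. In every library H3f3b was above H3f3a, and H1f8 was above both.

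Most of the summed FPKM of the H2B class came from a single gene. H2bc4 (Hist1h2bc), a clustered gene whose annotated 3' end lacks the stem-loop, had 334, 551 and 348 FPKM in control and 519, 379 and 388 in aminophylline libraries. It gave 92.9% ± 1.19 (SD, n = 3) of the H2B class in control and 93.0% ± 1.65 (SD, n = 3) with aminophylline. H2bc4 was lowest in control libraries 1 and 3 and highest in control library 2 and aminophylline library 1, the same libraries in which H1f8 was lowest and highest. With H2bc4 left out, the summed FPKM of the other 59 clustered genes was 133 to 162 in control and 145 to 157 with aminophylline.

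The H2A class, as the symbol rule draws it, was shared by 3 genes of like level. H2aj, an H2A gene outside the rule, had 20.7 to 36.4 FPKM over the 6 libraries. H2ac1 encodes TH2A, a histone known from testis and oocyte, and H2az1 and H2az2 encode the H2A.Z variants. H2ac1 had 65.3, 75.3 and 65.3 FPKM in control and 60.1, 49.6 and 61.0 in aminophylline libraries. H2az1 ranged from 49.2 to 70.1 and H2az2 from 42.5 to 66.5 over the 6 libraries. The ranges of these 3 genes overlapped, so their order was not set beyond the spread.

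**Figure D1:**
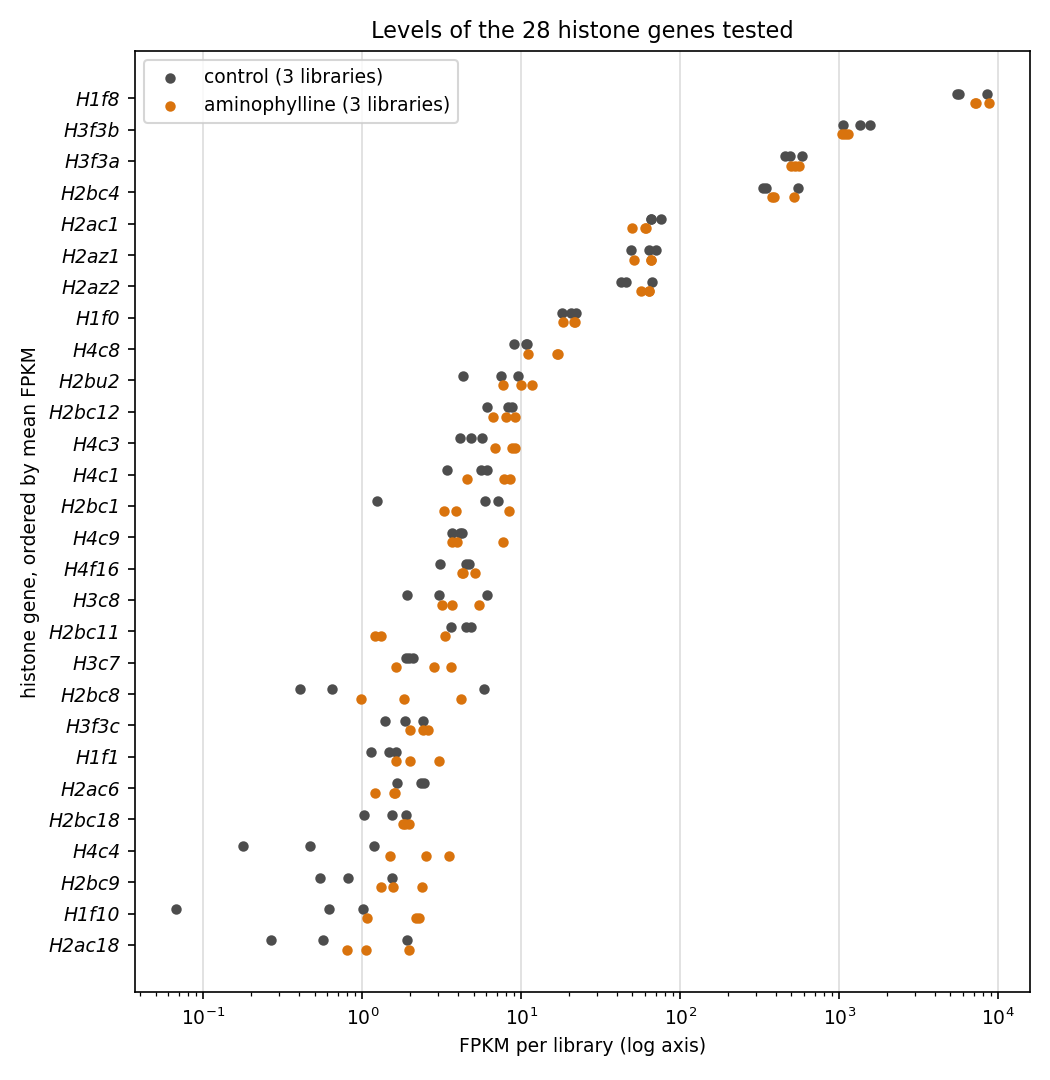
FPKM of the 28 histone genes tested, on a log axis and ordered by mean FPKM, with 1 point for each of the 3 control (grey) and 3 aminophylline (orange) libraries. H1f8 stands at 5512 to 8761, H3f3b, H3f3a and H2bc4 follow between 334 and 1556, and 19 of the 28 genes have a mean under 10.

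H4 has no replacement variant, and its 12 genes were the lowest class by summed FPKM. The summed FPKM of the H4 genes was 30.5, 27.9 and 30.1 in control and 43.9, 39.8 and 45.6 in aminophylline libraries. Every aminophylline library was above every control library, and this held when each library was rescaled to the same sum (TPM), with 47.4 to 59.0 in control and 70.3 to 84.2 with aminophylline. The correction for GC content and length described below was not applied to the sums. It lowered the median log2 fold change of the 6 H4 genes tested from 0.44 to 0.16. The H1, H2B and H3 sums overlapped between the groups, and so did the H2A sum, at 167 to 223 in control and 181 to 189 with aminophylline. Among the clustered genes alone, the 6 H1 genes summed to 1.91 to 2.13 in control and 2.66 to 3.87 with aminophylline. The sums of the 9 clustered H3 genes overlapped. The 16 clustered H2A genes, of which H2ac1 is the most abundant, summed to 70.6 to 86.1 in control and 54.3 to 67.0 with aminophylline. H2A.Z made up 56.7% to 61.4% of the summed FPKM of the 18 H2A genes in control and 63.4% to 70.3% in aminophylline libraries. These 18 leave out H2aj, an H2A gene outside the symbol rule, at 20.7 to 26.02 FPKM in control and 28.9 to 36.4 with aminophylline. With H2aj counted the shares would be lower, and whether they would still be apart was not computed. The class sums and shares are descriptions and were not tested.

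**Figure D2:**
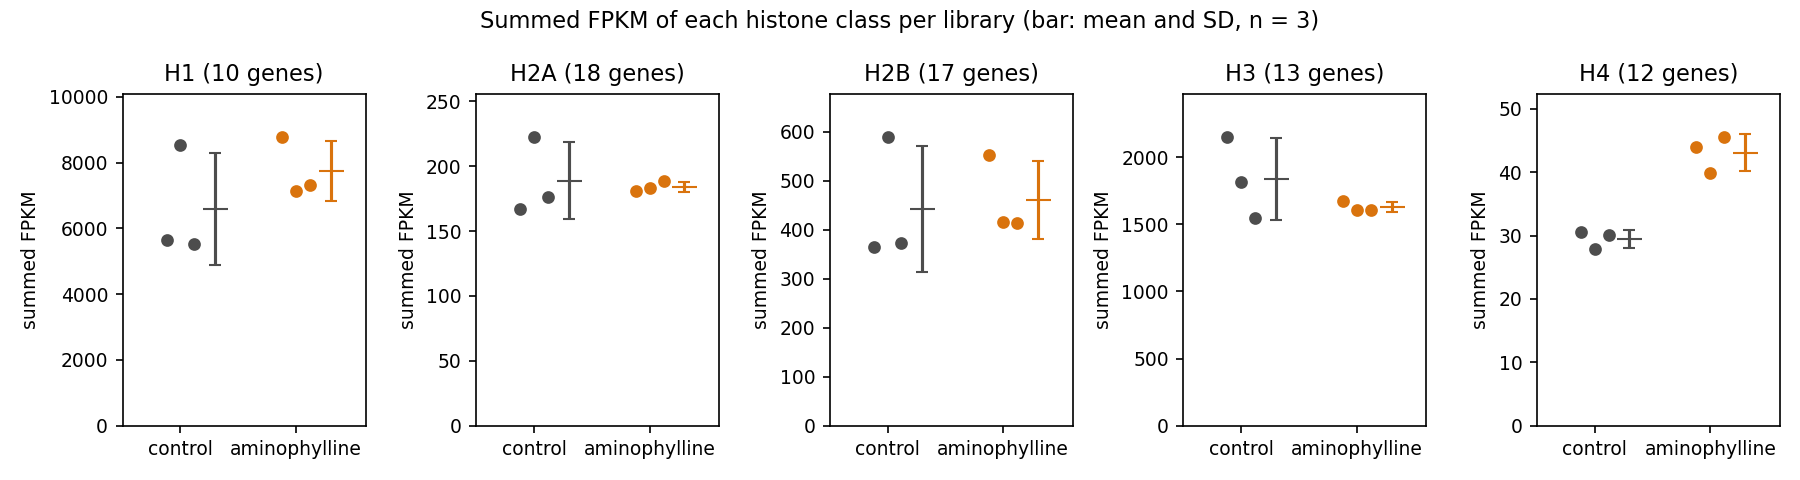
Summed FPKM of the genes of each histone class, with 1 point a library (grey control, orange aminophylline) and the mean and SD beside them (n = 3). The H4 panel shows 27.9 to 30.5 in control and 39.8 to 45.6 in aminophylline libraries, without overlap, while the other 4 classes overlap.

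Most clustered genes were close to the limit of counting. Of the 70 genes, 30 had over 3 reads in every library, 25 had over 3 reads in some libraries and 15 had 3 reads or fewer in each, which is at or under the floor. Libraries held 14112341 (control library 2) to 33641283 reads, and floors cover counting error only, since PCR copies are not independent molecules. H2ac20 had 10 reads in aminophylline library 3 and 0 in each other library. H2bc14 had 51 reads in control library 1, 1 in control library 2 and 2 in aminophylline library 3, and with a mean FPKM of 1.002 it was the highest gene left out of the tests. Of the 27 genes left out that had over 3 reads somewhere, the highest library was control library 2, the shallowest, for 8 and control library 1 for 6.

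Of 12 pairs of neighbouring H2A and H2B genes transcribed away from each other, 7 had both genes under a mean FPKM of 1, 3 had 1 gene above and 1 below it, and 2 had both above it. In the 3 pairs with the most abundant gene the neighbours differed widely in level. H2ac1 and its neighbour H2bc1 (TH2B) on chromosome 13 start 280 bases apart, and their mean FPKM was 62.8 and 4.96. H2ac6 and H2bc4 are 239 bases apart, at 1.80 and 420, and H2ac12 and H2bc12 are 177 bases apart, at 0.214 and 7.80. The 250 bases before the start of H2ac1 (chr13:23934187-23934436, plus strand), which also lead to H2bc1, are shown with those before H4c4 (chr13:23581318-23581567, plus strand), the gene with the largest change below, from RefSeq (GRCm38.p6). Capitals mark CCAAT or its complement ATTGG and the octamer ATTTGCAT or its complement ATGCAAAT.
H2ac1: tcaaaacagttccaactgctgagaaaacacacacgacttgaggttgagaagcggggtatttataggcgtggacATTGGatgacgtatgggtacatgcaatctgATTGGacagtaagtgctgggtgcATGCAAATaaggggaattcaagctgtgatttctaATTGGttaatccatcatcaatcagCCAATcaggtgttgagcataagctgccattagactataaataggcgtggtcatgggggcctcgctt
H4c4: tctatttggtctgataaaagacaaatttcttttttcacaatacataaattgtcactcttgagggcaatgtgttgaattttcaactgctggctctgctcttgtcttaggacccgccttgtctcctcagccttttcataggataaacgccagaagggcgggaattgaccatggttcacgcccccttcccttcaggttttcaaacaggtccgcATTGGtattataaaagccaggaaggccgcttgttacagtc

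Promoters (250 bases before to 50 after the start, both strands searched) were found for 65 of the 70 genes. CCAAT stood in 83.1% of them and in 41.1% of all 27025 promoters of the table. It was found in all 18 H2A and all 15 H2B promoters and in 3 of 11 H4 promoters. The octamer, which the transcription factor Oct1 is known to bind in H2B promoters, stood in 6 of 18 H2A, 6 of 15 H2B and 0 of 11 H4 promoters, and in 1.97% of all. Promoters of neighbouring H2A and H2B genes overlap, so 1 site can count in both classes. The octamer did so for H2ac1 and H2bc1, H2ac12 and H2bc12, and H2ac8 and H2bc8. TATAAA stood in 49.2% of the histone promoters and in 15.7% of all. In both sequences shown no motif overlapped another.

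The effect of aminophylline was tested with limma's moderated test on log2(FPKM + 1), a scale that understates the change of weakly expressed genes, for genes whose FPKM was 1 or more in 3 or more of the 6 libraries. Of the 70 histone genes 28 passed this filter, among 10340 genes in all. A gene was called when its unadjusted p was under 0.05 and its fold change over 1.5. By this rule H4c4, H1f10 and H4c3 rose, 3 of 28 genes (10.7%), where 2.08% of all genes tested were called higher, and H2bc11 fell, 1 of 28 (3.57%), where 1.13% were called lower. H4c4 and H1f10 entered the test through the aminophylline libraries in which they were high, so the share called higher is a description only, and with a filter at a mean FPKM of 5 the called genes were 1 of 13, H4c3. After Benjamini-Hochberg adjustment over all genes 0 histone genes had an adjusted p under 0.05, and limma's smallest among them was 0.651. At an unadjusted p under 0.05 limma gave 5 histone genes, against 7.25% of all genes tested. The groups did not overlap for 5 genes with aminophylline higher (17.9%, and 7.51% of all genes) and for 3 with aminophylline lower (10.7%, and 4.96% of all genes). The 5 include H4c4 and H1f10, so this share of higher genes is a description only as well. The median log2 fold change was 0.23 over the 28 histone genes and 0.10 over all genes tested, and 24 of the 28 (85.7%) and 64.8% of all genes were above 0. With GC content and length corrected the medians were 0.05 and 0.01, and 15 of the 28 (53.6%) and 51.8% of all genes were above 0. Of the 28, 5 reached an FPKM of 1 in under 2 control libraries (H4c4, H1f10, H2bc8, H2bc9 and H2ac18). All of these lay above 0 before that correction, so the medians and the shares above 0 are descriptions only. Without the filter the median of all 70 genes was 0.03.

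**Figure D3:**
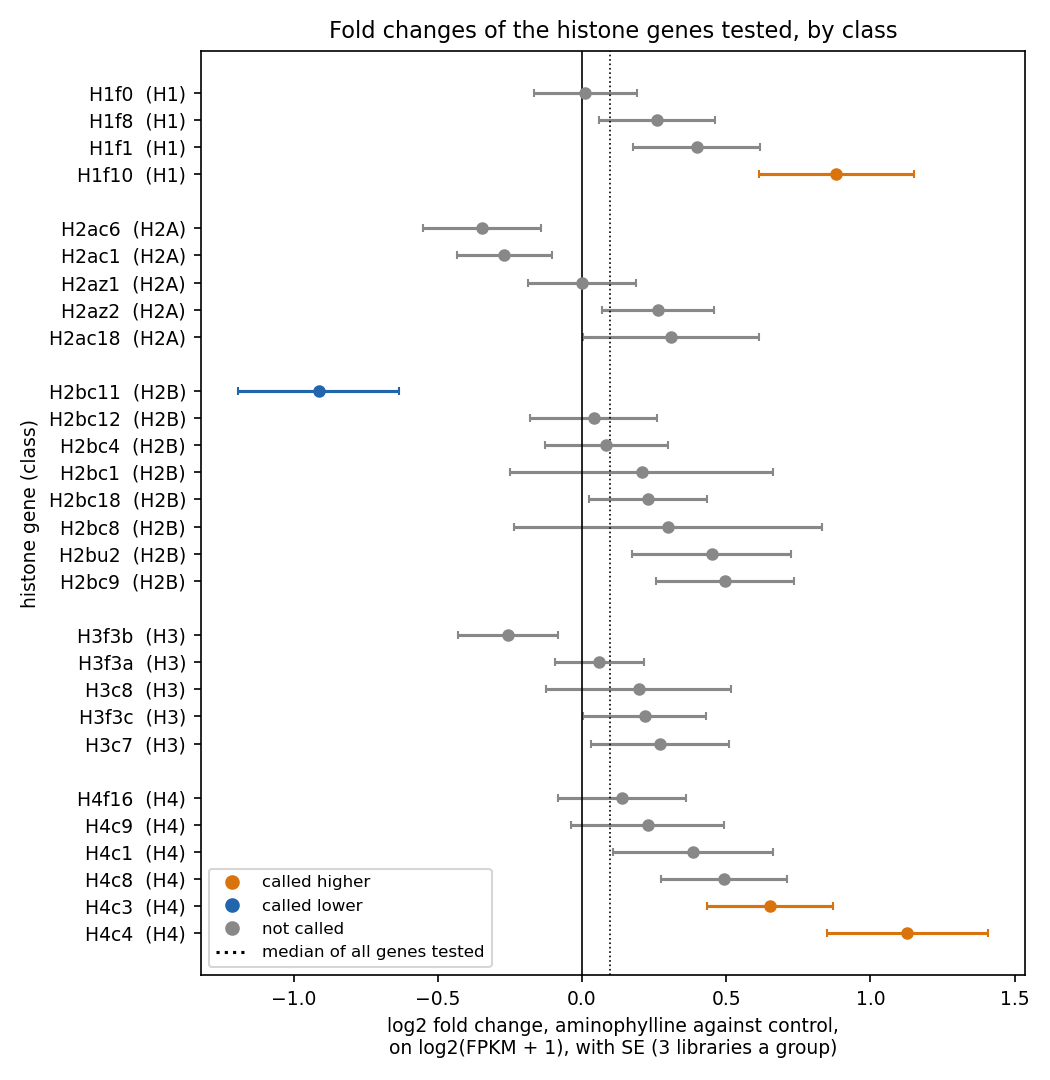
Log2 fold change on log2(FPKM + 1), aminophylline against control, of the 28 histone genes tested, by class, with the SE as bars (3 libraries a group); orange and blue mark genes called higher and lower, and the dotted line is the median of all genes tested (0.10). All 6 H4 genes lie above 0, and H2bc11 at -0.91 is the lowest.

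All 6 H4 genes tested had a log2 fold change above 0, with a median of 0.44 and a range of 0.14 to 1.13. Their proteins are the same or nearly so, and the genes share stretches of sequence. H4c4 (Hist1h4d; chr13:23581568-23581969) had FPKM values of 1.18, 0.176 and 0.469 in control and 1.498, 2.51 and 3.50 in aminophylline libraries. Every aminophylline library was above every control library, on 16, 1 and 6 reads in control and 17, 25 and 43 in aminophylline libraries. The log2 fold change of H4c4 was 1.13 ± 0.28 (SE), with an unadjusted p of 0.0019 and an adjusted p of 0.651 by limma. H4c4 reached an FPKM of 1 in the 3 aminophylline libraries and in 1 control library, so its place among the genes tested rests on the group where it was higher.

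H4c3 (Hist1h4c; chr13:23698084-23698458) had 4.84, 5.67 and 4.11 FPKM in control and 6.80, 9.15 and 8.72 in aminophylline libraries. The groups did not overlap, and the log2 fold change was 0.65 ± 0.22 (SE), with an unadjusted p of 0.013 and an adjusted p of 0.672 by limma. H4c8 (Hist1h4h; chr13:23531044-23531478) had 10.8, 8.96 and 10.8 FPKM in control and 16.8, 11.04 and 17.0 in aminophylline libraries. It did not overlap either, but with aminophylline library 2 just above the highest control library its log2 fold change was 0.49 ± 0.22 (SE; limma's unadjusted p 0.046), under the fold threshold. H4c1, H4c9 and H4f16 overlapped between the groups, at log2 fold changes of 0.39, 0.23 and 0.14. H4c9 was high in aminophylline library 2 alone, at 7.71 FPKM, where the other 5 libraries had 3.65 to 4.22.

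**Figure D4:**
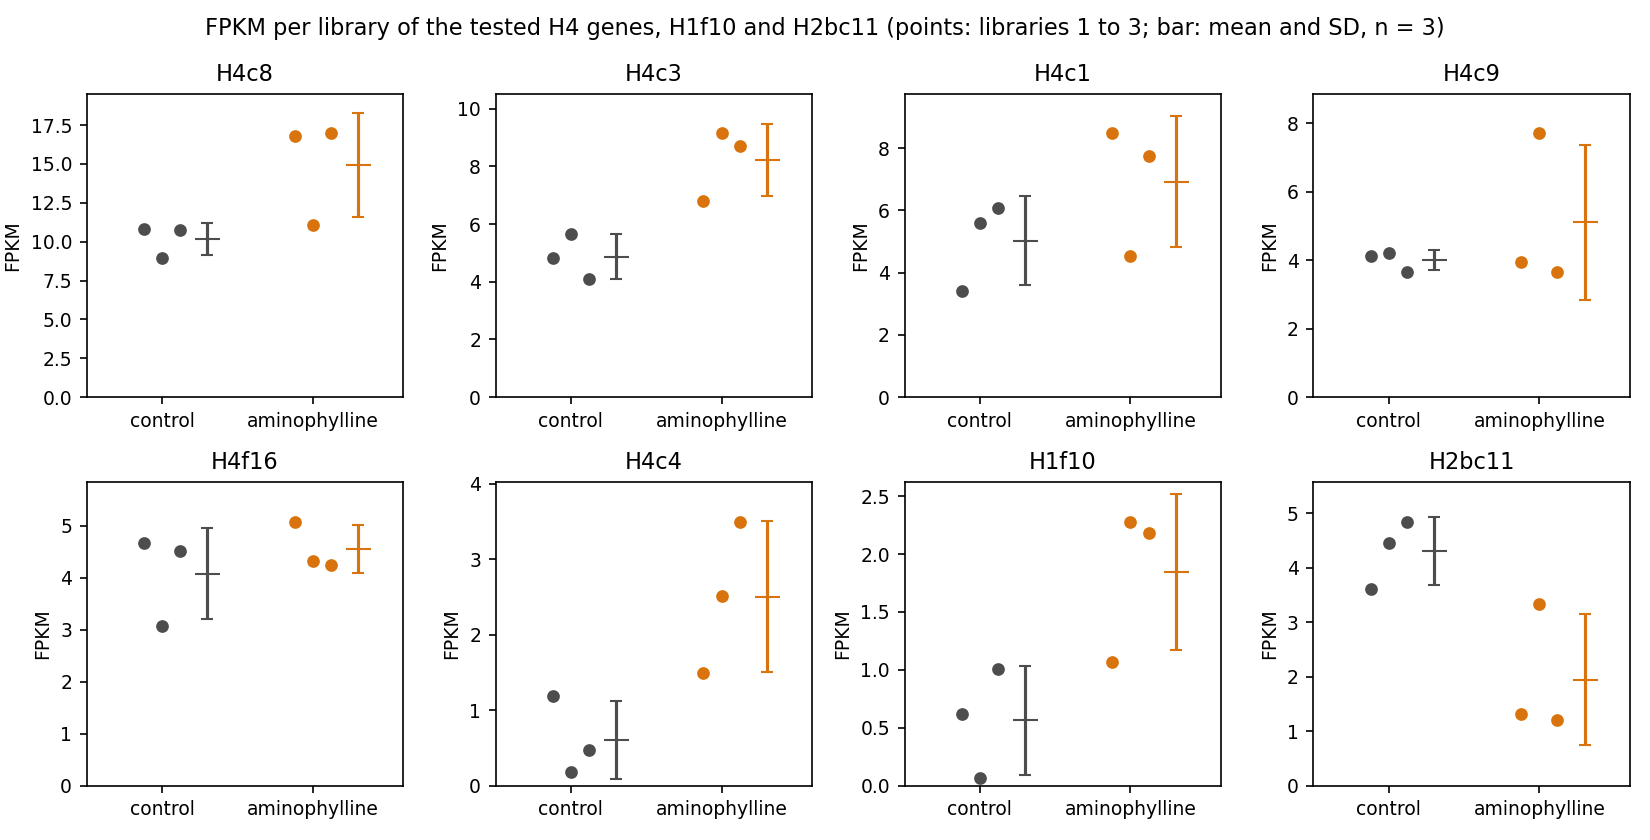
FPKM per library of the 6 H4 genes tested, of H1f10 and of H2bc11, on linear axes from 0, with points for libraries 1 to 3 of the control (grey) and aminophylline (orange) groups and the mean and SD beside them (n = 3). H4c8, H4c3, H4c4 and H1f10 are higher and H2bc11 is lower in each aminophylline library than in each control library, while H4c1, H4c9 and H4f16 overlap.

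The H4 calls moved with base composition, scaling and single libraries. With GC content and transcript length corrected, the median of the 6 H4 genes was 0.16 and 4 of them were above 0. H4c4 stayed called, at 0.91, and H4c3, at 0.42, lost the fold threshold. H4c3 also lost its call with quantile normalization (0.55), with median centring (0.57), without control library 3 (0.55) and without aminophylline library 2 (0.58), and H4c8 gained one without aminophylline library 2 (0.68). With the replicate number as a block, limma gave H4c4 an adjusted p of 0.0309, 1 of 28 histone genes where 0.455% of all genes tested passed, and with the block and the GC and length correction together 0.173. Over all settings the adjusted p of H4c4 ran from 0.0309 to 0.999. Whether libraries with equal numbers share mice or a preparation is not given in the sources used here, so the block is an alternative only.

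Among the linker histones H1f10 (H1fx, a widely expressed replacement linker histone; chr6:87980421-87981482) rose. It had 0.616, 0.0667 and 1.01 FPKM in control and 1.07, 2.28 and 2.19 in aminophylline libraries. The groups did not overlap, with 22, 1 and 34 reads in control and 32, 60 and 71 in aminophylline libraries. The log2 fold change was 0.88 ± 0.27 (SE), with an unadjusted p of 0.0073 and an adjusted p of 0.661 by limma, and like H4c4 it reached an FPKM of 1 in 1 control library. With GC content and length corrected it was 0.42 and no longer called. An antisense transcript, Gm5577, lies within the H1f10 interval, and since the strand of the counting is not given its reads cannot be told apart from those of H1f10.

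The other linker histones did not pass the test. H1f8 had a log2 fold change of 0.26 ± 0.20 (SE). Leaving out 1 library moved it between 0.15 (without control library 3) and 0.465 (without control library 2, limma's unadjusted p 0.0099), with 0.17 without control library 1 and 0.17 without aminophylline library 1, and under the fold threshold each time. H1f0 had 0.01 ± 0.18 (SE), with a direction that turned under 4 other scalings or weightings. H1f1 (Hist1h1a), the only clustered H1 gene tested, did not overlap between the groups, with 1.48, 1.62 and 1.14 FPKM in control and 1.997, 1.63 and 3.03 in aminophylline libraries. Its log2 fold change was 0.40 ± 0.22 (SE). H1f2, with 3 to 29 reads, was left out.

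H2bc11 (Hist1h2bj; chr13:22043198-22043658), a clustered H2B gene with the stem-loop shown above, was the only histone gene called lower. Its FPKM was 3.61, 4.46 and 4.84 in control and 1.31, 3.33 and 1.21 in aminophylline libraries. No aminophylline library reached the lowest control library, on 56, 29 and 71 reads in control and 17, 38 and 17 in aminophylline libraries. The log2 fold change was -0.91 ± 0.28 (SE), with an unadjusted p of 0.0074 and an adjusted p of 0.661 by limma. With library weights it was -0.55 and not called, and with GC content and length corrected it was -1.24. Of the 75-base windows of its transcripts, 50.4% occur in other genes, so its count depends on how shared reads were assigned, which is not given in the sources used here.

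The other 7 H2B genes tested lay above 0. H2bc4, which held most of the H2B FPKM, had a log2 fold change of 0.08 ± 0.21 (SE), and H2bc12 of 0.04. H2bc9 and H2bu2 had 0.50 and 0.45. H2bc9 was 1.54, 0.814 and 0.542 FPKM in control and 2.37, 1.55 and 1.32 in aminophylline libraries, and it was called only without control library 1 (0.70) or without aminophylline library 3 (0.61). H2bc1 and H2bc8 varied widely within the groups, H2bc8 from 0.407 to 5.80 FPKM among the control libraries, and without control library 2, its highest, H2bc8 was called higher at 1.02. H2bu2 was called there too, at 0.67, and with library weights, at 0.66. Of the control libraries, H2bc8 reached an FPKM of 1 in library 2 alone and H2bc9 in library 1 alone. The filter used all 6 libraries, so the calls of these 2 genes without those libraries are descriptions only.

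In the H2A class the clustered genes H2ac1 and H2ac6 were lower in every aminophylline library than in every control library, at log2 fold changes of -0.27 ± 0.16 (SE) and -0.35 ± 0.20 (SE). Neither passed the test. H2ac6 had 1.65, 2.33 and 2.45 FPKM in control and 1.6001, 1.57 and 1.21 in aminophylline libraries. H2ac1 was called lower only after the correction for GC content and length, at -0.59, with an adjusted p of 0.404 by limma, or 0.114 with the block as well, in a range of 0.114 to 0.999 over all settings. A microRNA model, Gm44344, lies antisense within H2ac1, and one, Gm44350, within H2ac6. H2az1 had a log2 fold change of 0.00 ± 0.19 (SE). H2az2 had 0.26 ± 0.19 (SE), or 0.14 without control library 3 and 0.46 without control library 2 (limma's unadjusted p 0.013). H2ac18, all of whose 75-base windows occur in other genes, had 0.31, and 0.66 with a call without control library 2. That is the only control library in which H2ac18 reached an FPKM of 1, so this call is a description only.

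Neither H3.3 gene was called. H3f3b had a log2 fold change of -0.26 ± 0.17 (SE), which was -0.13 without control library 1, -0.41 without control library 3 (limma's unadjusted p 0.021) and -0.34 with library weights (0.034), under the fold threshold in each. H3f3a had a log2 fold change of 0.06 ± 0.15 (SE), with a sign that turned under 3 other scalings or weightings. H3f3b was highest in control library 1, at 1556 FPKM, and the aminophylline libraries lay between 1041 and 1137. The clustered H3c7 and H3c8 and H3f3c had 0.27, 0.20 and 0.22. H3c8 was highest in control library 1, at 6.04 FPKM, and lowest in control library 3, at 1.92.

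Of the histone genes outside the symbol rule, H2aj did not overlap between the groups. H2aj, an H2A replacement gene, had 24.6, 26.02 and 20.7 FPKM in control and 36.4, 28.9 and 30.15 in aminophylline libraries, at a log2 fold change of 0.40 ± 0.18 (SE; limma's unadjusted p 0.048), under the fold threshold. Cenpa, the H3 variant of centromeres, had 38.7 to 53.3 FPKM over all libraries and a log2 fold change of 0.11. Macroh2a1 had 1.89 to 2.79 FPKM and -0.09.

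The genes that process, carry and deposit histones were read from 3 lists of 71 genes, of which 59 were tested. Chaf1a, the large subunit of the replication-coupled H3-H4 chaperone CAF-1, rose, and Rbbp7, a histone-binding protein shared by several chromatin complexes, fell. They were 1 of 59 called higher (1.69%, and 2.08% of all genes) and 1 of 59 called lower (1.69%, and 1.13% of all genes), shares near those of all genes, and the median log2 fold change was 0.11 against 0.10 for all genes. Chaf1a had 1.62, 2.42 and 3.54 FPKM in control and 4.44, 3.78 and 7.14 in aminophylline libraries, without overlap, at a log2 fold change of 0.79 ± 0.28 (SE). Rbbp7 had 1244, 800 and 971 in control and 692, 571 and 699 in aminophylline libraries, without overlap, at -0.60 ± 0.19 (SE). Their unadjusted p was 0.016 and 0.0079, and their adjusted p 0.682 and 0.661 by limma. Both lost the fold threshold with GC content and length corrected, and without control library 1 the fold changes were 0.60 (Chaf1a, limma's unadjusted p 0.075) and -0.44 (Rbbp7).

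Among factors that make histone mRNA, 0 of 17 tested genes were called. Slbp, which binds the stem-loop, was abundant, at 2113, 2025 and 1967 FPKM in control and 1859, 1980 and 1758 in aminophylline libraries, with a log2 fold change of -0.13 ± 0.14 (SE). Snrpd3, a protein of the U7 particle and of the spliceosome, had 0.53 (limma's unadjusted p 0.024), under the fold threshold. Of the 18 tested chaperones and exchange factors of H2A and H2B 0 were called. Npm2, the oocyte nucleoplasmin, was higher in every aminophylline library, with 241, 304 and 300 FPKM in control and 403, 378 and 386 in aminophylline libraries, at a log2 fold change of 0.47 ± 0.15 (SE; limma's unadjusted p 0.010), under the fold threshold. Nasp, which holds H1 and H3-H4, had 0.37 ± 0.24 (SE), and Hira, which deposits H3.3, stayed under an FPKM of 0.228 and was not tested. Hat1, the acetyltransferase of new H4, had 173, 161 and 166 FPKM in control and 125, 121 and 125 in aminophylline libraries, a log2 fold change of -0.42 ± 0.14 (SE; limma's unadjusted p 0.012), also under the fold threshold. Hat1 and Snrpd3 were singled out after their values were seen.

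The libraries carried oocyte mRNA in large excess. The 8 oocyte markers, such as Gdf9 and Zp3, summed to 8610 to 14421 FPKM in control and 10929 to 13291 in aminophylline libraries. The 14 granulosa markers summed to 18.8 to 26.6 and 21.1 to 27.2, with Foxl2, Amh, Fst and Has2 at 0 in at least 1 library. The 14 macrophage markers summed to 82.8 to 269 in control and 83.6 to 102 in aminophylline libraries, and 12 of the 14 were highest in control library 1, the library of the 269. The 13 genes of dividing cells, all of them tested, summed to 475 to 528 and 487 to 535, with 0 called. The 5 erythrocyte markers listed summed to under 0.586 in each library. Without control library 1, 5 histone genes were called and the median log2 fold change was 0.17, and the part of these cells in the histone values was not tested.

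Many histone genes are near copies. Of the 75-base windows of a gene's transcripts, at least 50% occur in another gene for 28 of the 70 members and for 6 of the 28 tested. The share was 0% for H1f8, 3.67% for H4c4, 12.2% for H1f10, 16.9% for H4c3 and 42.4% for H4c8. Windows were taken over all transcript models of a gene, and some models are longer than the length counted. H4c4 had 1064 windows for a counted length of 402 bases, and H4c3 had 746 for 375. The share over the counted length alone was not computed and can be higher. Within the intervals of 24 members an exon of another gene is annotated, mostly small antisense models.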

How the data were processed

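RNA-seq libraries of mouse oocytes (3 control, 3 aminophylline) were grouped by their labels. The authors deposited FPKM values per gene. Per the labels, total RNA was used with the VAHTS Universal V6 RNA-seq kit and the processing notes name build GRCm38 (mm10). The aligner, counting program, annotation, read length and strand setting are not given in the sources used here.

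Members, gene lists and tests were chosen with earlier results of these data known. Reads behind each FPKM were recovered from ratios between libraries (99.9911% of 22583 genes whole, within 0.001), giving 14112341 to 33641283 reads a library, of which 99.57% to 99.63% lay on listed genes. Precision is that of 3 libraries a group, and the floor was 3 reads.

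log2(FPKM + 1) was fitted with limma 3.58.1 (R 4.3.3, trend on the mean, two-sided, no covariate) on all genes with FPKM of at least 1 in 3 of 6 libraries, where the study names an unpaired t test. Adjusted p is Benjamini-Hochberg over all 10340. Named genes were members with unadjusted p under 0.05, the 8 most abundant members, the oocyte linker and replacement variants, called genes of the helper lists, and Slbp, Npm2, Nasp, Hira and Cenpa. Other members appear for their class.

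The labels number the libraries of both groups 1 to 3. Over the genes tested, the deviations from the group means of libraries with equal numbers correlated at 0.138, 0.140 and 0.552, each over 0.1. Libraries with unequal numbers are not set beside these, and no shared mice or preparation is given in the sources used here. Pairing is thus not established, and the replicate block was run as an alternative only. GC content and length were known for 8887 of the genes (85.9%) and were corrected by loess (span 0.5). The code was tested on simulated data. Sequences came from RefSeq (GRCm38.p6, 70 of 70 members matched, Python 3.11.15) and GENCODE M21, which may differ from the annotation counted. Of the 70 counted lengths, 60 equalled the RefSeq gene length. For 40 genes of the whole table, seen in few libraries, the recovered length was raised to the RefSeq length. Where a member is among these, the equality was set by that step. Protein sequences were not used here.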

Additional observations from a re-analysis of the deposited data

How the results depend on the processing

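The 28 histone genes tested gave 4 calls, 3 higher and 1 lower. The count stayed within 1.5 times of this under 11 of the alternatives that keep all 6 libraries, but directions and genes changed. With GC content and length corrected, also with the block, 1 was higher and 2 were lower, H2ac1 among them. With library weights 4 were higher and 0 lower. The count was 1 with a mean FPKM of at least 5 (13 genes tested, without H4c4, H1f10 and H2bc11) and 2 with the unmoderated linear model. It was 1 with a fold threshold of 2 and 0 at an adjusted p under 0.05. Leaving out 1 library, with the filter over all 6 kept, gave 3 to 7, the 7 without control library 2. That 7 includes H2bc8 and H2ac18, which reached an FPKM of 1 in no other control library. With the replicate block the count was 4, and the block changed no other call than the adjusted p of H4c4. The median log2 fold change of the histone genes was 0.03 (no filter) to 0.31 (voom on whole reads), and 0.15 to 0.33 with 1 library left out. The helper genes gave 2 calls, but 1 with a mean FPKM of at least 5, 1 with the unmoderated model, 10 with library weights, 0 with GC content and length corrected (also with the block), 0 with a fold threshold of 2, 7 without one and 0 at an adjusted p under 0.05, and 0 (without control library 1) to 10 (without control library 3) with 1 library left out. The log2 fold change of H4c4 was 0.91 to 2.07 and that of H1f10 0.42 to 1.92, the highest with voom or a pseudocount of 0.1. H2bc11 and H1f10 lost their calls with the unmoderated model, and H2bc11 also with library weights. Directions turned for genes near 0. With quantile normalization the log2 fold change was -0.0752 for H3f3a, -0.0267 for H2az1 and -0.0251 for H1f0, and with median centring it was -0.0213, -0.0814 and -0.07. With library weights it was -0.0448 for H3f3a, -0.1055 for H1f0 and -0.0076 for Cenpa, with rescaling to a common sum (TPM) -0.0425 for H2az1 and -0.0302 for H1f0, and with GC content and length corrected, also with the block, -0.0571 for H2az1 and -0.0944 for H1f0. With 1 library left out it was -0.0143 to 0.1615 for H3f3a, -0.06 to 0.3151 for H2bc4, -0.1434 to 0.1154 for H2az1, -0.0617 to 0.0881 for H1f0 and -0.0059 to 0.2191 for Cenpa. The cause was not tested. Alternatives meant for deposited counts (DESeq2, edgeR) were not run, since the table holds FPKM. At 3 reads or fewer in each library, 15 genes could not be compared at this depth.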
